A study of Mus musculus with 11 samples.

Results

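A set of 8 genes of the caspase cascade and the apoptosome were followed by genotype in the thymus: Casp2, Casp8 and Casp9, which encode initiator caspases, Casp6, which encodes an executioner caspase, Apaf1 and Cycs, whose products APAF1 and cytochrome c build the apoptosome, Xiap, which encodes an inhibitor of caspases, and Diablo, which encodes the mitochondrial protein SMAC that antagonises XIAP. They were chosen by name and are 8 of the 54418 genes in the table. RNA was taken from thymocytes, which are T cells at the stages passed in the thymus, of mice aged 8 to 12 weeks on a C57BL/6-WEHI background. There were 4 wt mice, 4 Zmat3-/- mice, which lack the RNA-binding protein ZMAT3, and 3 Puma-/-p21-/-Zmat3-/- (TKO) mice, which also lack PUMA, a pro-apoptotic BH3-only protein, and p21, an inhibitor of cyclin-dependent kinases. The deletions were inherited in the germline and were not restricted to thymocytes, and the TKO line came from crossing the Zmat3-/- line with a Puma-/-p21-/- line. Each library was 1 mouse, and no treatment is given in the labels.

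PUMA sits at the head of the mitochondrial pathway of apoptosis. BH3-only proteins release BAX and BAK to open the outer mitochondrial membrane, cytochrome c escapes into the cytosol and joins APAF1, and the assembled apoptosome activates caspase-9, which cleaves the executioner caspases. SMAC leaves the mitochondria with cytochrome c and frees caspases from XIAP. Caspase-8 is activated at death receptors and caspase-2 at the PIDDosome, so these initiators work upstream or beside the apoptosome. Cell death by this pathway removes many thymocytes during normal development. The amounts of RNA described here say nothing about cleavage of the proteins.

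The sequences before 3 of the genes are shown because they carry the NRF-1 core, the CRE and the E2F site, the searched motifs that were rarest among all promoters and present before a member. Each is the 250 bases before the RefSeq start on GRCm38.p6, printed 5′ to 3′ on the strand of the gene, with the motif matches named here in capitals. The Casp2 sequence lies at chr6:42264735-42264984 on the + strand and has CCAAT, TTTCCCGC and ATTGG in capitals, a CCAAT box on each strand and an E2F site between them. The Apaf1 sequence lies at chr10:91082744-91082993 on the - strand and has, in capitals, 2 GC boxes, GGGCGG, and between them GCGCATGC, the NRF-1 core read on the other strand. The Cycs sequence lies at chr6:50566570-50566819 on the - strand and has TGACGTCA, the cAMP response element (CRE), GCATGCGC, the NRF-1 core, and CCAAT in capitals.
Casp2: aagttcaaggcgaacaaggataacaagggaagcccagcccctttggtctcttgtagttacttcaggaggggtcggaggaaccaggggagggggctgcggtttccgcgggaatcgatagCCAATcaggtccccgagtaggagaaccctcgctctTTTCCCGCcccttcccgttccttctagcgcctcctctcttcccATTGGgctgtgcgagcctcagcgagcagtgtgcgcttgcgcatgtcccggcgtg
Apaf1: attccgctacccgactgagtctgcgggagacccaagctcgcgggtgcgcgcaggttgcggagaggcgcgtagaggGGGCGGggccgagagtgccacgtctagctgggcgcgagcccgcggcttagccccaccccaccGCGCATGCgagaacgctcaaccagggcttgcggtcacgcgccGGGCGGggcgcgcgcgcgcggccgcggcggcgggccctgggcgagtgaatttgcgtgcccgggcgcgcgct
Cycs: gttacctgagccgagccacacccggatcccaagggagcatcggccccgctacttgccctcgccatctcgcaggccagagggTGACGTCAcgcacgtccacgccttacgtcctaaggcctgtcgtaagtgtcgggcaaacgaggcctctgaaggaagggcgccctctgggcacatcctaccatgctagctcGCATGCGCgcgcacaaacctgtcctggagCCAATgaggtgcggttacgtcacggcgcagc

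The motifs were searched on both strands of these 250 bases in 10 RefSeq promoters of the 8 genes (Xiap has 3) and in 32851 promoters of all genes. The NRF-1 core GCATGCGC stood before Apaf1 and Cycs and in 2.26% of all promoters. The CRE was found before Cycs and in 1.55% of all promoters, and the E2F site TTTCCCGC before Casp2 and in 0.895% of them. CCAAT, in 33.8% of all promoters, stood before Casp2, Casp8, Cycs and Diablo. GGGCGG, in 32.7%, stood before Apaf1, Casp2, Casp6, Casp9, Diablo and Xiap, and before Casp2 it lies on the other strand, overlaps the E2F site and is not marked in capitals of its own. The consensus p53 response element was found in 0.0639% of all promoters and in none of the 10. The motifs were picked with these sequences in view, and a match is a description of letters, not of binding.

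Cycs has to be read with its copies. The gene (ENSMUSG00000063694.5, chr6:50562563-50566538, - strand of GRCm38) has a near-identical relative, Gm10053 (chr19:24875686-24876631, + strand), whose transcript of 946 bases matched positions 65 to 1010 of the 3123 bases of the Cycs transcript at 945 of 946 bases. The mismatch is T481A, with positions counted from 1 at the 5′ end of the Cycs transcript, and lies outside the coding bases 132 to 449. The first 60 coding bases, in exon 2 at chr6:50565601-50565660, are identical in both (capitals mark the start codon). They are printed to show that these bases alone cannot tell the 2 genes apart. Reads were paired, so the other end of a fragment may reach bases outside the match.
Cycs and Gm10053: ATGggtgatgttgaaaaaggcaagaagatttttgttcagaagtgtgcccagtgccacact
The counts of Cycs are therefore uncertain. Cycs held 55.4% to 61.9% of the summed CPM (counts scaled to the size of each library) of itself and 6 annotated copies in the 11 mice, and Gm10053 had 29.6 to 55.8 CPM. Diablo (ENSMUSG00000029433.16, chr5:123509765-123524176, - strand) overlaps B3gnt4 on the other strand and Gm49027 on the same strand, and the kit did not mark strand. It held 94.4% to 98.7% of the sum of the 3 genes. Casp8 shares 8.02% of its 31-base words with the pseudogene Gm20257, Xiap 2.30% with Gm17791, Casp9 1.23% each with Cela2a and Ctrc on the other strand, and Apaf1 0.650% with Gm30285.

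The other members lie at chr6:42264985-42282508 (Casp2, + strand), chr3:129901425-129914103 (Casp6, +), chr1:58795374-58847503 (Casp8, +), chr4:141793612-141815976 (Casp9, +), chr10:90989311-91082770 (Apaf1, -) and chrX:42059679-42109656 (Xiap, +), where the counts cover the exons of each gene as a whole. Libraries held 17669715 to 80207003 counts, at which 3 counts are worth 0.0403 to 0.167 CPM, and the 8 members had 301 to 13609 counts in every mouse. Thymocyte markers such as Cd3e, Cd4, Cd8a and Rag1 were counted in every mouse, with a sum of 12229 to 16983 CPM over 10 genes. Zmat3 had 9.88, 12.2, 26.8 and 26.8 CPM in wt mice, 5.34 to 6.85 CPM in Zmat3-/- and 7.78 to 8.25 CPM in TKO mice, lower in every mutant mouse (log2FC -1.64, adjusted p = 0.0786 from edgeR and 0.000376 from DESeq2 in Zmat3-/- mice; -2.16 without wt mice 1 and 2, -0.85 without wt mice 3 and 4, with an adjusted p under 0.05 in 11 of 23 alternatives), and reads of the gene remained in the mutants. Bbc3, which encodes PUMA, had a mean of 18.6, 17.2 and 13.7 CPM and Cdkn1a, which encodes p21, of 6.57, 6.54 and 3.13 CPM in wt, Zmat3-/- and TKO mice. Cdkn1a had 8.20, 10.4, 3.53 and 4.15 CPM in wt mice 1 to 4, and its log2FC in TKO against wt mice was -1.09 (adjusted p = 0.443 from edgeR), with -0.35 without wt mice 1 and 2 and -1.59 without wt mice 3 and 4, and its adjusted p was under 0.05 in 2 of 22 alternatives.

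Before the results it has to be said that wt mice 1 and 2 stood apart from every other mouse. Across genes, their log2 CPM correlated at 0.982 with each other and at 0.895 to 0.924 with wt mice 3 and 4, which correlated at 0.982 with each other, while Zmat3-/- mice correlated at 0.984 to 0.990 and TKO mice at 0.971 to 0.983. Relative to the mean of the 11 mice, genes with long transcripts stood below genes with short transcripts by a log2 difference of -1.08 and -0.75 in wt mice 1 and 2, against 0.03 to 0.38 in the other 9 mice. Genes of high GC content stood above those of low GC content by 0.54 and 0.33 in these libraries and by -0.21 to -0.01 in the others. Xist stood at 505 to 1485 CPM in 5 libraries, of which the wt pair 1 and 2 was a part beside mice 1 and 2 of the Zmat3-/- group and mouse 1 of the TKO group, which did not stand apart, and at 0.806 to 2.54 CPM elsewhere. The summed markers of thymic stroma were 114 to 123 CPM in wt mice 1 and 2, 28.4 to 48.2 CPM in wt mice 3 and 4, 76.4 to 102 CPM in Zmat3-/- and 46.7 to 97.9 CPM in TKO mice, with 8 of 8 markers counted in every mouse. The summed B cell markers (6 of 6 counted in every mouse) were 90.7 to 121 CPM in wt mice 1 and 2 and 54.9 to 78.9 CPM in the others. The summed erythroid markers (6 of 6) were lowest in wt mice 1 and 2, at 880 to 1079 CPM, beside 1152 to 8558 CPM in the others, and the myeloid markers (8 of 8) had 196 to 243 CPM in wt mice 1 and 2, 137 to 158 CPM in wt mice 3 and 4 and 126 to 271 CPM in the mutants. The summed immediate-early genes (8 of 8) were 458 to 481 CPM in wt mice 1 and 2, 174 to 183 CPM in wt mice 3 and 4 and 930 to 1280 CPM in the mutant mice. The share of counts on mitochondrial genes was 6.54% to 14.6% in the Zmat3-/- group, above that of the wt group (4.25% to 6.31%) without overlap, and 3.86% to 9.29% in the TKO group. In whole thymus suspensions, fewer cells of a type and less RNA per cell cannot be told apart. The part of these measures in the results was not tested, apart from the fits with the Xist level or an offset for length and GC content and those within mice of high or low Xist.

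The initiator caspases had close levels in the 3 genotypes. Casp9, the caspase of the apoptosome, had 14.5, 15.7, 18.6 and 18.9 CPM in wt mice 1 to 4, 17.5, 18.1, 18.5 and 16.9 CPM in Zmat3-/- mice 1 to 4, and 17.7, 16.7 and 20.8 CPM in TKO mice 1 to 3. The mutant mice lay among or above the wt mice, and 6 of 7 were inside the wt range. The log2 fold change (log2FC) was 0.07 in TKO against wt mice (standard error 0.151, 95% interval -0.28 to 0.42) and 0.07 in Zmat3-/- against wt mice (standard error 0.123, 95% interval -0.21 to 0.35).
Casp2 had 115, 122, 142 and 144 CPM in wt mice, 136, 143, 143 and 143 CPM in Zmat3-/- mice, and 140.0, 129.8 and 168 CPM in TKO mice. Its log2FC was 0.11 in each mutant against wt (standard error 0.138 in TKO and 0.109 in Zmat3-/- mice). As for Casp9, wt mice 1 and 2 were the lowest of all and TKO mouse 3 the highest.
Casp8 had 63.8, 73.8, 67.3 and 65.4 CPM in wt mice, 63.1, 69.9, 62.6 and 69.2 CPM in Zmat3-/- mice, and 62.1, 59.4 and 67.9 CPM in TKO mice. It was the steadiest member, with its highest mouse 1.24-fold above its lowest, and the wt mice did not split into pairs. The log2FC was -0.14 in TKO against wt mice (95% interval -0.39 to 0.11) and -0.02 in Zmat3-/- against wt mice (95% interval -0.22 to 0.17).

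The executioner caspase Casp6 had 55.0, 59.2, 43.7 and 41.1 CPM in wt mice, 41.6, 41.6, 41.9 and 44.5 CPM in Zmat3-/- mice, and 41.8, 47.2 and 43.2 CPM in TKO mice. Here wt mice 1 and 2 were the highest of all, and 7 of 7 mutant mice lay inside the wt range. The mean and SD came to 49.7 ± 8.71 CPM for the 4 wt mice, 42.4 ± 1.41 CPM for the 4 Zmat3-/- mice and 44.1 ± 2.77 CPM for the 3 TKO mice. The log2FC was -0.21 in TKO (standard error 0.165) and -0.22 in Zmat3-/- mice (standard error 0.121), each against wt.

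**Figure D1:**
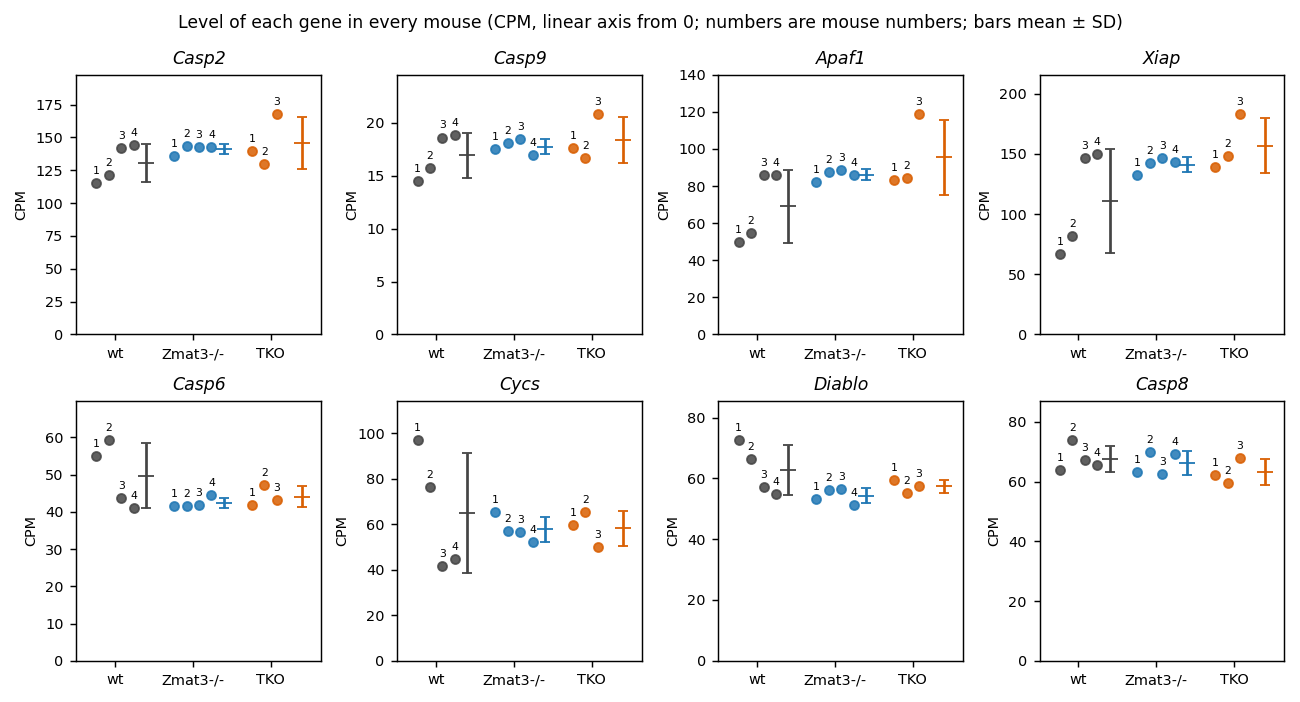
CPM of each of the 8 genes (y axis, linear, from 0) by genotype (x axis), with a point per mouse carrying its number and a bar for the mean ± SD. In the upper row of panels wt mice 1 and 2 lie lowest and TKO mouse 3 highest. In Casp6, Cycs and Diablo wt mice 1 and 2 lie highest, and Casp8 shows neither order.

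The apoptosome genes moved apart from each other between mice. Apaf1, the scaffold, had 49.8, 54.5, 86.2 and 85.7 CPM in wt mice, 82.3, 87.4, 88.9 and 86.0 CPM in Zmat3-/- mice, and 83.3, 84.1 and 119 CPM in TKO mice. The wt mice fell into a low and a high pair, the Zmat3-/- mice lay beside the high pair, and TKO mouse 3 was above all others. The mean and SD came to 69.0 ± 19.6 CPM for the 4 wt mice, 86.1 ± 2.82 CPM for the 4 Zmat3-/- mice and 95.4 ± 20.2 CPM for the 3 TKO mice. The mean of the Zmat3-/- mice lay at the upper end of the wt range and that of the TKO mice above it, and 4 of 7 mutant mice were inside the wt range. The log2FC was 0.41 in TKO (standard error 0.238, 95% interval -0.14 to 0.96) and 0.32 in Zmat3-/- mice (standard error 0.199, 95% interval -0.13 to 0.77).
Cycs had 96.8, 76.4, 41.9 and 44.8 CPM in wt mice, 65.4, 57.2, 56.4 and 52.2 CPM in Zmat3-/- mice, and 59.6, 65.2 and 49.8 CPM in TKO mice. All 7 mutant mice lay in the gap between the wt pairs, below wt mice 1 and 2 and above wt mice 3 and 4. The log2FC was -0.18 in TKO (standard error 0.315, 95% interval -0.91 to 0.55) and -0.16 in Zmat3-/- mice (standard error 0.254, 95% interval -0.74 to 0.42), and summing Cycs with its 6 copies gave -0.15 and -0.11. Summing it with every gene that shares words with it turned the direction, to 0.045 and 0.035.

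The inhibitor and its antagonist also differed most among wt mice. Xiap had 66.4, 81.6, 147 and 149 CPM in wt mice, 132, 142, 147 and 143 CPM in Zmat3-/- mice, and 139, 148 and 183 CPM in TKO mice. With a 2.75-fold range over the 11 mice it was the most variable member, and 6 of 7 mutant mice were inside the wt range. The log2FC was 0.44 in TKO (standard error 0.305, 95% interval -0.26 to 1.15) and 0.34 in Zmat3-/- mice (standard error 0.267, 95% interval -0.27 to 0.95).
Diablo had 72.5, 66.4, 57.2 and 54.8 CPM in wt mice, 53.2, 56.3, 56.7 and 51.3 CPM in Zmat3-/- mice, and 59.5, 55.3 and 57.4 CPM in TKO mice. The mutant mice lay at or just around wt mice 3 and 4, below wt mice 1 and 2. The log2FC was -0.16 in TKO (standard error 0.137) and -0.20 in Zmat3-/- mice (standard error 0.102, 95% interval -0.43 to 0.03).

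To ask whether loss of ZMAT3, alone or with PUMA and p21, changed the RNA of these genes, the genotypes were set against each other in pairs by the quasi-likelihood test of edgeR over all genes that passed a filter on low counts, which all 8 members did. A gene was called at an adjusted p under 0.05 and an absolute log2FC above 1.5. Between TKO and wt mice, 0 of 8 members were called, where 0.241% of 13260 genes were, and 0 had an adjusted p under 0.05 at any fold, where 0.294% did. Between Zmat3-/- and wt mice, 0 of 8 were called beside 0.319% of 13494 genes, and 0 passed the adjusted p alone beside 0.763%. Without adjustment, 0 of 8 had p under 0.05 in either comparison, beside 10.3% and 16.1% of all genes. DESeq2 also gave 0 members at an adjusted p under 0.05. The lowest adjusted p from edgeR was 0.584 for Apaf1 in TKO mice and 0.377 for Diablo in Zmat3-/- mice. The ranges of the genotypes overlapped for all 8 members in both comparisons, while they did not overlap for 12.1% and 14.1% of all genes. Two-sided exact permutation tests of log2 CPM gave p of at least 0.257 in TKO and at least 0.114 in Zmat3-/- mice, where 0.0286 is the smallest p that either design allows. Without wt mouse 4, Diablo reached that p in Zmat3-/- mice (exact permutation p = 0.0286, a difference of -0.26 in mean log2 CPM). In each comparison 4 members were higher and 4 lower, with a median log2FC of -0.03 in TKO and 0.02 in Zmat3-/- mice beside -0.04 and -0.03 over all genes. Both comparisons share the 4 wt mice and are not independent.

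Between TKO and Zmat3-/- mice, where the added loss of PUMA and p21 was asked about, 7 of 8 members had a smaller absolute log2FC than in either comparison with wt mice, and Casp8 had -0.12 beside -0.02 in Zmat3-/- against wt mice. The log2FC ran from -0.12 for Casp8 (95% interval -0.27 to 0.03) to 0.10 for Xiap (95% interval -0.05 to 0.25), and the 8 intervals together spanned -0.34 to 0.28. Of the 8, 0 were called beside 0.122% of 13124 genes, 0 passed an adjusted p of 0.05 beside 0.221%, 0 had an unadjusted p under 0.05 beside 4.5%, and DESeq2 gave 0. For 0 of 8 the ranges did not overlap, beside 4.92% of all genes. A test of any difference among the 3 genotypes gave adjusted p of 0.480 (Apaf1) to 0.941 (Casp9), where 1.88% of 13522 genes passed.

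**Figure D2:**
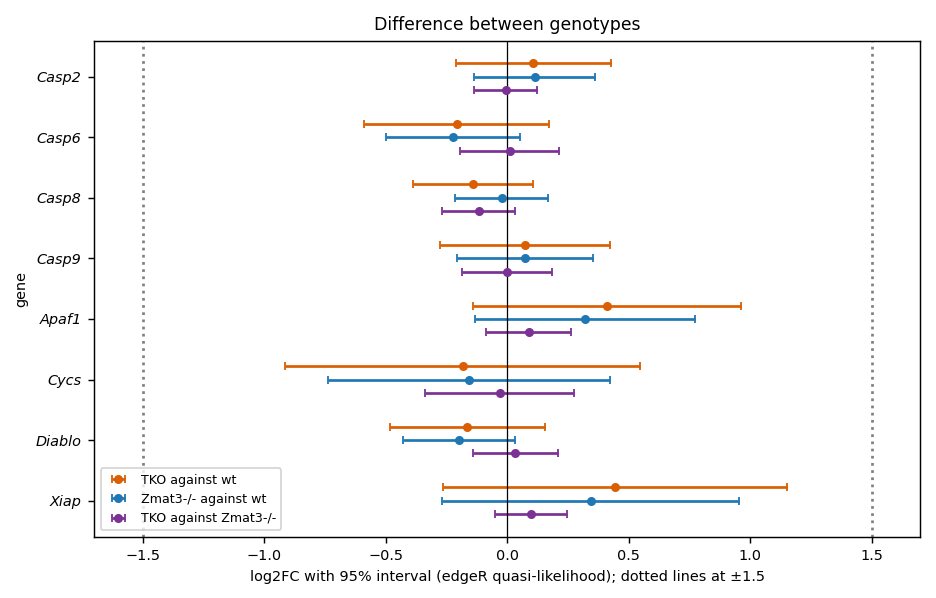
Log2FC with its 95% interval (x axis) for each gene (y axis) in the 3 comparisons, from edgeR's quasi-likelihood test; dotted lines mark ±1.5. Every interval crosses 0 and stays within the dotted lines, and the intervals between TKO and Zmat3-/- mice, from -0.34 to 0.28 in all, are the narrowest for each gene.

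These results rest on which wt mice are used. Leaving out wt mice 1 and 2, the log2FC of Xiap was 0.015 in TKO and -0.091 in Zmat3-/- mice, that of Apaf1 0.079 and -0.017, and that of Cycs 0.37 and 0.40, and Cycs in Zmat3-/- mice was the 1 value that passed (adjusted p = 0.0107 from edgeR), where 1098 of 13479 genes passed in TKO and 4649 of 14107 in Zmat3-/- mice. Leaving out wt mice 3 and 4 instead, 4 members passed in TKO and 6 in Zmat3-/- mice, with Xiap at 1.06 and 0.94, Apaf1 at 0.84 and 0.74 and Cycs at -0.58 and -0.57, the opposite sign. In that fit 5829 of 13360 genes passed in TKO and 7968 of 14204 in Zmat3-/- mice. With 1 surrogate variable, a covariate estimated from the counts, Apaf1 and Xiap passed in TKO mice (log2FC 0.32 and 0.35, adjusted p = 0.0228 and 0.0180 from edgeR), and Apaf1, Xiap, Casp6 and Diablo in Zmat3-/- mice (0.30, 0.34, -0.18 and -0.17), where 1855 of 13260 and 5086 of 13494 genes passed. With the Xist level as a covariate 0 members passed, and in TKO mice Xiap had 0.44, Apaf1 0.38 and Cycs -0.013. With an offset for transcript length and GC content, Xiap had 0.071 and 0.015 and Apaf1 0.14 and 0.11, and 0 members passed.

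The division of the wt mice can be described gene by gene, with no test, since it was seen in the values. Both wt mice 1 and 2 lay below the other 9 mice for Casp2, Casp9, Apaf1 and Xiap, and above them for Casp6, Cycs and Diablo, so 4 of 8 members were low and 3 of 8 high, beside 24.7% and 26.5% of 13522 genes. Wt mice 3 and 4 exceeded wt mice 1 and 2 by a log2 of 1.01 for Xiap, 0.72 for Apaf1, 0.31 for Casp9 and 0.27 for Casp2, and fell below them by 0.31 for Diablo, 0.43 for Casp6 and 0.99 for Cycs. The longest transcripts of Xiap and Apaf1, of 6834 and 6577 bases, are the longest of the set. After the offset for length and GC content the difference was -0.14 for Xiap and 0.10 for Apaf1, and it was 0.40 for Casp9, 0.22 for Casp2, -0.18 for Diablo, -0.52 for Casp6 and -1.25 for Cycs. The mean of the 7 mutant mice differed from wt mice 3 and 4 by a log2 of 0.41 for Cycs and by -0.06 to 0.06 for the other 7 genes.

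The SD of log2 CPM of the wt mice was above that of the Zmat3-/- mice for 8 of 8 members and above that of the TKO mice for 6 of 8, and the median SD of all tested genes was also highest in wt mice, at 0.371 beside 0.122 in Zmat3-/- and 0.218 in TKO mice. In wt mice it was 0.594 for Xiap and 0.590 for Cycs, at the 74.2 and 73.9 percentile of all tested genes, and 0.0911 for Casp8, at the 6.05 percentile. In Zmat3-/- mice Casp2 had an SD of 0.0366, at the 5.24 percentile. TKO mouse 3, the deepest library, was the highest of the 11 mice for Casp2, Casp9, Apaf1 and Xiap, with 168, 20.8, 119 and 183 CPM. Its share of mitochondrial counts was 3.86%, the lowest of the 11 mice, beside 8.44% and 9.29% in TKO mice 1 and 2. Without it the log2FC of Apaf1 in TKO against wt mice was 0.31 and that of Xiap 0.40. Over all mice left out in turn, Xiap ran from 0.26 (without wt mouse 1) to 0.63 (without wt mouse 4) in TKO and from 0.16 to 0.53 (the same mice) in Zmat3-/- mice, and Apaf1 from 0.28 to 0.54 and from 0.19 to 0.45.

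**Figure D3:**
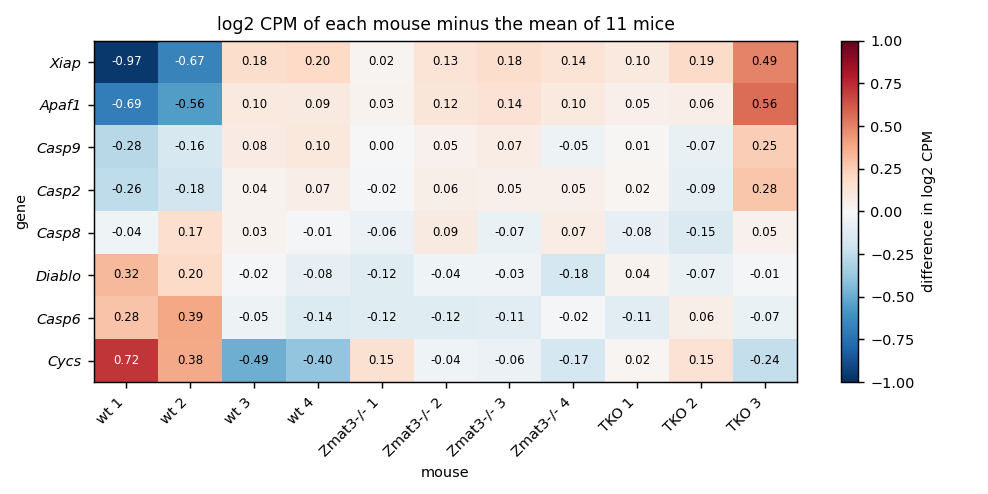
Log2 CPM of each mouse (x axis) minus the mean of the 11 mice for each gene (y axis), on a colour scale from -1 to 1. The lowest and the highest departure, -0.97 for Xiap and 0.72 for Cycs, are both in wt mouse 1. TKO mouse 3 is raised by 0.25 to 0.56 in the upper 4 genes.

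Ratios of the RNA counts of 2 genes within a library do not depend on library scaling, but they carry any trend with transcript length and GC content. The ratio of Apaf1 to Casp9, scaffold to caspase, had a log2 of 1.78, 1.79, 2.21 and 2.18 in wt mice, 2.23, 2.27, 2.27 and 2.34 in Zmat3-/- mice, and 2.24, 2.33 and 2.51 in TKO mice. Every mutant mouse lay above every wt mouse, by the narrowest margin against wt mouse 3. The mean was 0.29 higher in Zmat3-/- than in wt mice (exact permutation over mice, two-sided p = 0.0286, the smallest possible; 0.343 after adjustment over the 12 ratio tests; with the mouse number as a block, p = 0.125, the smallest for 4 pairs), and 0.37 higher in TKO mice (p = 0.114, adjusted 0.480). After adjustment neither was significant, and leaving out wt mice 1 and 2 the differences were 0.08 and 0.16 and without wt mice 3 and 4 they were 0.49 and 0.57. The ratios were not recomputed with the length and GC offset, under which wt mice 3 and 4 exceeded wt mice 1 and 2 by less for Apaf1 (0.10) than for Casp9 (0.40).
The ratio of Diablo to Xiap, antagonist to inhibitor, had a log2 of 0.13, -0.30, -1.36 and -1.45 in wt mice, -1.31 to -1.48 in Zmat3-/- mice and -1.22 to -1.67 in TKO mice. Its mean was lower than in wt mice by 0.63 and 0.70 in Zmat3-/- and TKO mice (two-sided exact permutation test, p = 0.286 for each), with mutants beside wt mice 3 and 4. The ratio of Casp9 to Xiap was lower by 0.35 and 0.45 (exact permutation p = 0.200 for each). The ratio of Cycs to Apaf1 had a log2 of 0.96, 0.49, -1.04 and -0.94 in wt mice and of -1.25 to -0.33 in the mutants, with differences of -0.45 and -0.57 (exact permutation p = 0.429 and 0.400). Between TKO and Zmat3-/- mice the 4 ratios differed by -0.12 to 0.08 (exact permutation p = 0.171 to 0.743).

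**Figure D4:**
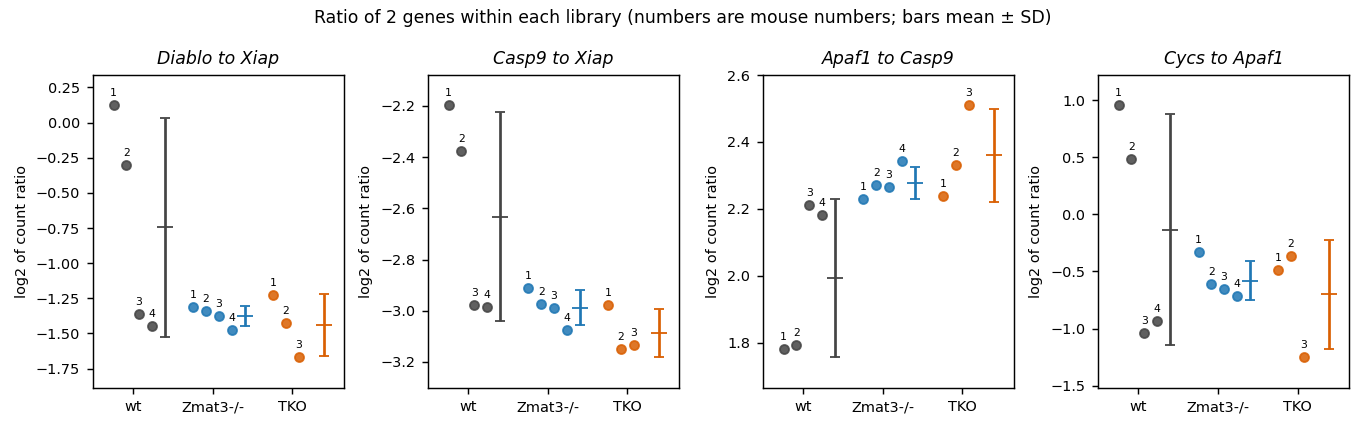
Log2 of the count ratio of 2 genes in each library (y axis) by genotype (x axis), with a point per mouse carrying its number and a bar for the mean ± SD. In each panel wt mice 1 and 2 lie away from the rest, and in the panel of Apaf1 to Casp9 all mutant mice lie above the 4 wt mice, of which the highest had 2.21.

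Levels of different genes can be compared only per length. In RPKM, which divides CPM by the length of the united exons in kilobases, the means over 11 mice were 22.8 ± 1.44 for Casp8, 19.7 ± 1.93 for Casp2, 17.8 ± 4.57 for Cycs, 14.2 ± 3.45 for Xiap, 9.45 ± 0.991 for Diablo, 9.13 ± 2.00 for Apaf1, 8.15 ± 1.08 for Casp6 and 3.39 ± 0.325 for Casp9 (SD, n = 11). The ranges of neighbours in this order overlapped, except those of Casp6, with 7.36 to 10.6, and Casp9, with 2.79 to 4.01. Casp9 was the lowest member in every mouse. The rest of the order depended on the length used: by the mean length of coding transcripts Diablo ranked 1, Casp2 ranked 2, Casp8 ranked 3 and Casp9 again ranked 8.

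Over the 11 mice the log2 CPM of the members formed opposed sets, given as a description since the mice share genotypes. Wt mice 1 and 2 stood apart, and the correlations between members were not recomputed without them. Pearson's r was 0.978 between Apaf1 and Xiap, 0.956 between Casp2 and Casp9 and 0.947 between Casp2 and Apaf1, and -0.848 between Diablo and Xiap. Casp8 correlated with the other members at -0.18 to 0.32. Of 11616 other protein-coding genes, the most alike was Ncoa3 for Apaf1 (r = 0.999, 0.993 without wt mice 1 and 2) and Trim33 for Xiap (r = 0.998, 0.974 without wt mice 1 and 2). For the others, with r without the 2 mice farthest from the median in brackets, it was Ipo9 for Casp9 (0.982, 0.949), Slc39a9 for Casp2 (0.988, 0.972), Isg15 for Cycs (0.985, 0.970), G0s2 for Diablo (0.979, 0.867), Ccm2 for Casp6 (0.972, 0.864) and Gtf2a1 for Casp8 (0.859, 0.725).

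The rest of the pathway was described by 5 lists with 38 genes: other caspases, other inhibitor of apoptosis (IAP) genes, IAP antagonists and apoptosome modulators, genes of the caspase-8 and caspase-2 platforms, and caspase substrates and death nucleases. Of these, 32 were tested between TKO and wt mice, 33 between Zmat3-/- and wt mice and 32 between TKO and Zmat3-/- mice, and 0, 1 and 0 passed an adjusted p of 0.05 (beside 0.294%, 0.763% and 0.221% of all genes). With the mouse number as a block, 12 genes in all passed between Zmat3-/- and wt mice in place of 103, and 0 of the 8 members. Genes too low to test were Casp12, Casp14, Birc7, Naip1 and Mlkl, and Nol3 in the comparisons with TKO mice. The median log2FC was -0.03 in TKO and -0.06 in Zmat3-/- mice against wt, close to the -0.04 and -0.03 of all genes.

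The gene that passed was Naip2, a NAIP-family IAP gene whose product senses bacterial proteins for an inflammasome. It had 1.64, 1.39, 1.78 and 1.77 CPM in wt mice, 4.57, 3.32, 3.94 and 3.45 CPM in Zmat3-/- mice, and 3.22, 3.39 and 3.17 CPM in TKO mice. Every mutant mouse was above every wt mouse, with wt mice 1 and 2 below wt mice 3 and 4. The log2FC was 1.22 in Zmat3-/- mice (standard error 0.200, adjusted p = 0.0365 from edgeR) and 0.95 in TKO mice (standard error 0.250, adjusted p = 0.300). In Zmat3-/- mice the adjusted p stayed under 0.05 in 13 of 23 alternatives, among them without wt mice 1 and 2 (log2FC 1.09, adjusted p = 0.00809) and without wt mice 3 and 4 (1.35, adjusted p = 0.00146), and rose above it without any 1 of the 8 mice (0.0639 to 0.154), with the block (0.180) and without a filter on low counts (0.0918). In TKO mice it was under 0.05 in 4 of 22 alternatives, the lowest with DESeq2 (0.0153). A log2FC above 1.5 was reached in none of these. Naip2 shares 29.2% of its 31-base words with Naip1, Naip5 or Naip6, so its counts are uncertain, and at these levels each wt value stood on 43 to 56 counts.

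Among genes that did not pass, those with the lowest p of 4 of the 5 lists are given. Ripk1, a kinase that binds caspase-8 complexes, had a mean of 28.8 CPM in wt mice, 38.7 to 40.9 CPM in Zmat3-/- and 33.6 to 43.9 CPM in TKO mice, and neither range overlapped that of the wt mice. Its log2FC was 0.46 in Zmat3-/- (standard error 0.0935, adjusted p = 0.0705 from edgeR) and 0.41 in TKO mice (adjusted p = 0.426), and over the alternatives the adjusted p in Zmat3-/- mice ran from 0.000128 to 0.429. With the length and GC offset the log2FC of Ripk1 was 0.19 in Zmat3-/- and 0.11 in TKO mice, the lowest of any alternative. Dffb, the caspase-activated DNase, had a log2FC of -0.31 in Zmat3-/- mice (adjusted p = 0.208), and Parp1, a substrate of executioner caspases, of 0.24 in TKO mice (adjusted p = 0.526). Htra2, a mitochondrial protease that binds IAPs, had -0.20 in Zmat3-/- (adjusted p = 0.383) and -0.35 in TKO mice (adjusted p = 0.490). Between TKO and Zmat3-/- mice, Birc6, Sept4, Cradd and Panx1 had the lowest p of their lists, with log2FC of 0.20, 0.24, -0.22 and 0.11 (adjusted p = 0.983 for each).

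**Figure D5:**
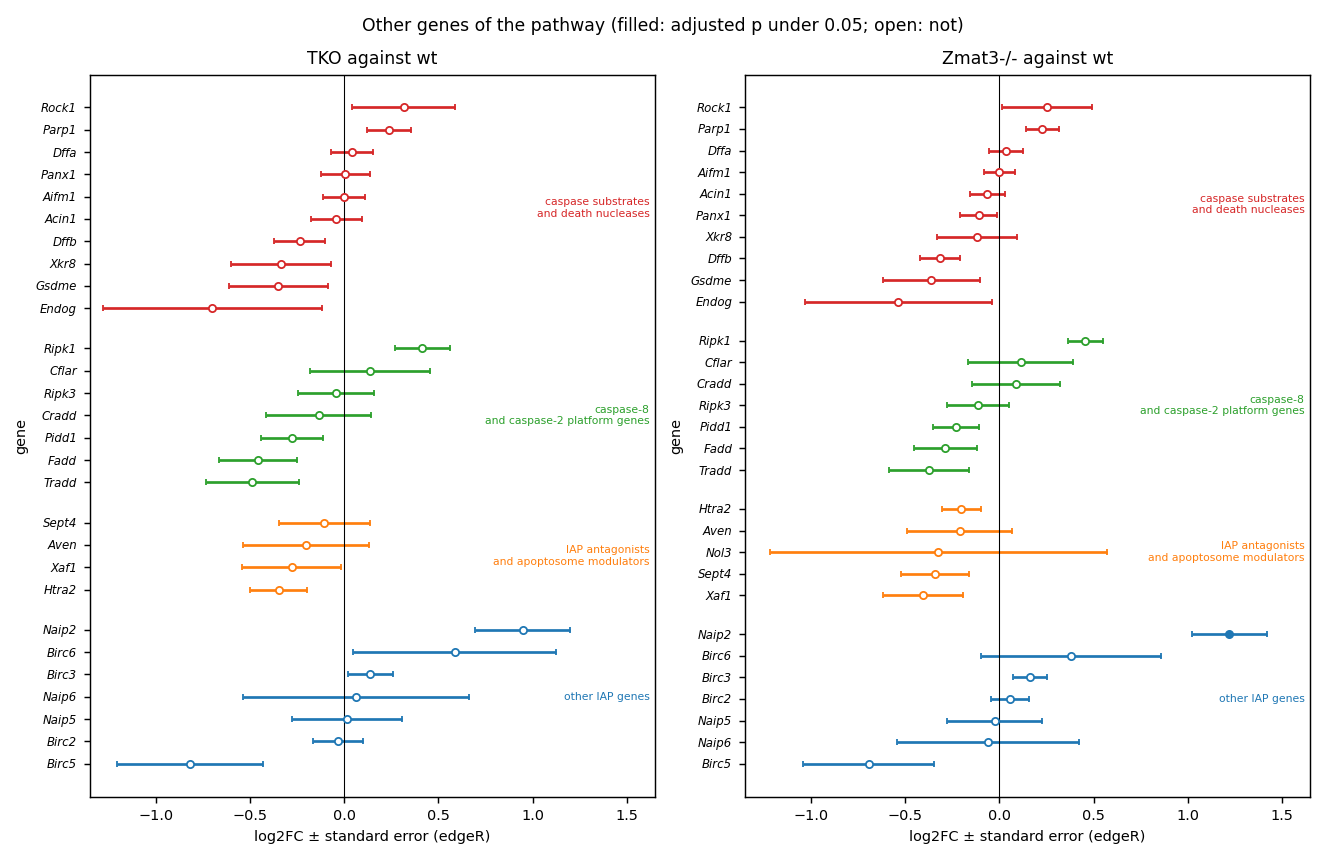
Log2FC ± standard error from edgeR (x axis) for the tested genes of 4 of the 5 lists, without the other caspases (y axis, coloured by list) in TKO and in Zmat3-/- against wt mice; filled points have an adjusted p under 0.05. The only filled point is Naip2 in Zmat3-/- mice, at 1.22.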

How the data were processed

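RNA from thymocytes of 4 wt, 4 Zmat3-/- and 3 TKO mice was sequenced with a TruSeq kit that does not mark strand. The authors quantified reads with Salmon (nf-core/rnaseq, GRCm38.p6, GENCODE vM25) and deposited estimated counts per gene, whole numbers without normalization. Names and positions came from GENCODE M21, which matched 54166 of 54418 genes. Pairs of genotypes were tested with edgeR 4.0.16 in R 4.3.3 (TMM factors, quasi-likelihood test, Benjamini-Hochberg adjustment over all genes tested). A gene was tested if it had the equivalent of 20 counts at the depth of the smallest library in at least the number of mice of the smaller group. Xist, genes on chromosome Y, rRNA genes and immunoglobulin genes that do not code for protein were not tested. The study fitted DESeq2 with sex and surrogate variables. The labels give no sex, so these were alternatives (DESeq2 1.42.0, sva 3.50.0, Xist level). CPM used TMM factors over 11 mice, and permutation tests log2 CPM with a prior count of 2. RPKM used exon lengths from GENCODE M21.

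The members and lists were chosen with earlier results of these data known. Genes named are the members, the 3 targeted genes, list genes that passed or had the lowest p of their list, and the gene most alike to each member. Values of single genes of the list of other caspases are not reported here. Replicate numbers in the labels denote different mice. Deviations of wt and Zmat3-/- mice of the same number correlated at 0.128 to 0.337, above 0.1 in all 4 pairs, so a fit with the number as a block is given for that comparison. The p-values judge a difference against the spread between these mice, which in the wt group includes the division into pairs. Counting floors cover counting error only. The test was checked on simulated counts with the same spread in every group and no division of the wt mice. That check therefore does not cover the division seen here.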

Additional observations from a re-analysis of the deposited data

Results flagged for a closer look

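In Zmat3-/- mice, Casp2 was at 136 CPM in mouse 1 and at 143 CPM in each of the other 3, and this gap was 0.892 of the range of the group, above Dixon's 95% limit for 4 samples. Casp6 was at 44.5 CPM in Zmat3-/- mouse 4 and between 41.6 and 41.9 CPM in the rest of the group, a gap of 0.901 of the range. Both values lay apart within a group whose spread was small. The same measure was taken in 24 groups, of which chance sets apart about 1 in 20. The limit is for groups of 4, and TKO groups, of 3 mice, were not judged by it.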

How the results depend on the processing

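The members had at least 301 counts in every mouse. Of the values recomputed under an alternative other than leaving out a mouse, 729 kept their direction and side of the threshold or stayed within the spread set for them, 74 newly passed it, 5 no longer passed it, 45 changed sign and 21 others moved. The alternatives without a pair of wt mice, within mice of high or low Xist, with the length and GC offset, and with the narrower sums for Cycs and Diablo were chosen after seeing the data.

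The number of members at an adjusted p under 0.05 was 0 in every comparison. Given with the genes that passed in the same fit, between TKO and wt mice it became 2 with 1 surrogate variable (1855 of 13260 genes), 2 with the Xist level added (1662 of 13260), 2 in mice with Xist above 100 CPM (3089 of 15329) and 4 without wt mice 3 and 4 (5829 of 13360). Between Zmat3-/- and wt mice it became 4 with 1 surrogate variable (5086 of 13494), 4 with the Xist level added (5252 of 13494), 1 without wt mice 1 and 2 (4649 of 14107), 1 in mice with Xist below 100 CPM (3881 of 13774), 6 without wt mice 3 and 4 (7968 of 14204) and 5 in mice with Xist above 100 CPM (6004 of 14270). For any genotype difference it became 2 with 1 surrogate variable (3662 of 13522), 2 with the Xist level added (3281 of 13522), 6 without wt mice 3 and 4 (6874 of 13645) and 3 in mice with Xist above 100 CPM (5219 of 15269). With Xist above 100 CPM the TKO group is 1 mouse, assumed to vary like the other groups, and the wt group is wt mice 1 and 2. Leaving out each mouse gave 0 to 0 in every comparison. The cause was not tested.

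These log2FC changed sign. In TKO against wt mice Cycs had 0.069 with 1 surrogate variable, 0.13 with the Xist level added, 0.37 without wt mice 1 and 2, 0.34 in mice with Xist below 100 CPM and 0.045 summed with every gene sharing words. Casp9 had -0.0053 with the Xist level and 1 surrogate variable. Without wt mice 1 and 2 Casp2 had -0.040 and Casp9 -0.091, and in mice with Xist below 100 CPM Casp2 had -0.039, Casp6 0.012 and Casp9 -0.089. In Zmat3-/- against wt mice Cycs had 0.019 with 1 surrogate variable, 0.010 with the Xist level added, 0.40 without wt mice 1 and 2, 0.31 in mice with Xist below 100 CPM and 0.035 summed with every gene sharing words. Without wt mice 1 and 2 Casp2 had -0.040, Casp9 -0.097, Apaf1 -0.017 and Xiap -0.091, and in mice with Xist below 100 CPM Casp2 had -0.022, Casp6 0.0092, Casp9 -0.099 and Xiap -0.049. Without wt mice 1 and 2 the log2 ratio of Cycs to Apaf1 differed from wt by 0.29 in TKO and 0.41 in Zmat3-/- mice, and that of Diablo to Xiap by 0.028 in Zmat3-/- mice.

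In TKO against Zmat3-/- mice, where values were near 0, Casp9 had 0.0052 with DESeq2, 0.0035 with RLE size factors, 0.016 without a filter, 0.0063 with all 3 genotypes in one fit and 0.0013 in mice with Xist below 100 CPM. Casp2 had 0.0097 without a filter, 0.00062 with all 3 genotypes in one fit and 0.012 in mice with Xist above 100 CPM, where Apaf1 had -0.017. Cycs had 0.090 with 1 surrogate variable, 0.087 with the Xist level added, 0.018 in mice with Xist below 100 CPM and 0.0079 summed with every gene sharing words. In mice with Xist below 100 CPM Casp6 had -0.0064 and Diablo -0.014, and with the length and GC offset Casp6 had -0.013. The difference in mean log2 CPM of Cycs became -0.041 with the replicate block and -0.024 with RLE size factors. The cause of these changes was not tested.

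With 1 mouse left out, the log2FC of Cycs ran from -0.34 to 0.070 in TKO and from -0.31 to 0.092 in Zmat3-/- mice, each against wt, and its difference in mean log2 CPM from -0.26 to 0.14 in both. For Casp8 in Zmat3-/- mice these were -0.056 to 0.0051 and -0.055 to 0.014. Between TKO and Zmat3-/- mice the log2FC ran from -0.031 to 0.038 for Casp2, -0.076 to 0.10 for Casp6, -0.015 to 0.030 for Casp9, -0.0067 to 0.15 for Apaf1, -0.15 to 0.14 for Cycs and -0.026 to 0.11 for Diablo. The difference in mean log2 CPM ran from -0.066 to 0.12 for Casp2, -0.047 to 0.11 for Casp9, -0.040 to 0.21 for Apaf1 and -0.080 to 0.11 for Cycs, and the difference in log2 ratio from -0.17 to 0.051 for Diablo to Xiap and -0.29 to 0.15 for Cycs to Apaf1.

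The replicate block changed no call of a member. It moved the count of all genes at an adjusted p under 0.05 from 39 to 16 in TKO against wt mice and from 29 to 21 in TKO against Zmat3-/- mice. There same-numbered mice correlated at 0.0734 to 0.405 and at 0.0102 to 0.195, not above 0.1 in every pair. These values cannot tell whether such mice share more than a number. Over all alternatives these counts ran from 16 to 5829, from 12 to 7968 in Zmat3-/- against wt mice, and from 14 to 377. DESeq2 gave 381, 1085 and 73.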
